A study of Mus musculus with 8 samples.

Results

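The lysosomal hydrolases and the proton pump that acidifies them were followed in mouse medulloblastoma, a tumour of the cerebellum, with and without Bcl2l1, which encodes BCL-xL, a protein that holds back apoptosis. The set holds 47 genes: 19 subunits and accessory proteins of the vacuolar proton pump (V-ATPase), 16 hydrolases and 12 other lysosomal genes. They were chosen by symbol as genes of known lysosomal function. Of the 47, 45 were among the 22180 genes that have a probe set of their own, and all 45 passed the filter on dim genes, while Atp6v0c and Glb1 were not analysed here. The tumours of both groups came from mice carrying Math1-Cre and SmoM2, untreated and sampled at postnatal day 15. The 4 Bcl2l1-deleted tumours came from mice that also had floxed alleles of the gene (Math1-Cre/SmoM2/Bcl2l1 f/f), and the 4 control tumours came from Math1-Cre/SmoM2 mice. Cre driven by the Math1 promoter acts in granule neuron progenitors, where it switches on an active form of Smoothened (SmoM2), and the other cells of a tumour piece do not drive it. The 2 genotypes were taken from the titles and the genotype field, because a further status field reads deleted for all 8 samples.

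Lysosomes break down proteins, glycans and lipids with enzymes that work in acid. The V-ATPase provides the acid: its V1 sector splits ATP in the cytosol and its V0 sector carries protons through the membrane. The transcription factor TFEB binds a short motif named CLEAR in promoters of many lysosomal genes and drives enzymes and pump subunits together, and the kinase complex mTORC1 holds it back. In brain, neurons use the pump to load synaptic vesicles too, while microglia and macrophages are rich in lysosomes, which they use to digest engulfed cells.

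Expression was measured on 1 whole-transcript array per tumour, as log2 RMA values in which 1 unit is a doubling, and the number of arrays limits the precision. Bcl2l1 itself was at 5.48 ± 0.15 (SD, n = 4) in Bcl2l1-deleted tumours and 6.84 ± 0.19 (SD, n = 4) in controls, and its adjusted p of 0.0051 (limma, Benjamini-Hochberg over 15526 genes) goes with the labels. The position of the probes relative to the floxed segment was not analysed. Control replicate 2 stood apart: it correlated with the other arrays at 0.920 to 0.948, against 0.966 or more among the other 7. Its spread between genes was narrower (interquartile range of 2.40, against 3.29 to 3.66 on the others), and it was the lowest of the 8 arrays for 33 of the 45 lysosomal genes and for 54.6% of all tested genes. Results are therefore given with and without it. The median tested gene was 0.17 higher on the log2 scale in Bcl2l1-deleted tumours (0.08 without control replicate 2), and a relative change below is the fitted change minus this median. All 10 granule progenitor markers, Atoh1 and Gli1 among them, lay above the dim filter, and none of them passed the test (1 had an unadjusted p under 0.05, limma).

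Promoter sequences are shown first because they carry the motif by which enzymes and pump subunits are known to be driven together. RefSeq windows (GRCm38.p6, 250 bases before to 50 after a start) were found for 39 of the 47 genes. The CLEAR core TCACGTGA, which reads the same on both strands, lay in the windows of 5 of them, or 12.8%, against 1.12% of 27025 genes with a window and 1.89% of the tested ones. These were the pump genes Atp6v0d1 (V0 stalk), Atp6v0e (V0) and Atp6v1a (the ATP-splitting subunit), the galactosidase gene Gla, and Mcoln1, the gene of a lysosomal calcium channel. The stretches around the motif run 5′ to 3′ on the gene's own strand, with the motif in capitals. They lie at chr8:105566035-105566128 on the minus strand for Atp6v0d1, chr17:26676338-26676425 on the plus strand for Atp6v0e, chr16:44139324-44139451 on the minus strand for Atp6v1a, chrX:134601166-134601255 on the minus strand for Gla, and chr8:3500413-3500540 on the plus strand for Mcoln1.
Atp6v0d1: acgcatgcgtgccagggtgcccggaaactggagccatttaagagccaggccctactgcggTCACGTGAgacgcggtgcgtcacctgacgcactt
Atp6v0e: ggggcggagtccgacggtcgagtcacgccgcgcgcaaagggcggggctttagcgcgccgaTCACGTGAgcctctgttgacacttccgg
Atp6v1a: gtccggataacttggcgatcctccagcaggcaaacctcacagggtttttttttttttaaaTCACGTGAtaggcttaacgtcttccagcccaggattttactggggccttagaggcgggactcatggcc
Gla: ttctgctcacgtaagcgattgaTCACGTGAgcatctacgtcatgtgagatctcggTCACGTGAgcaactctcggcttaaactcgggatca
Mcoln1: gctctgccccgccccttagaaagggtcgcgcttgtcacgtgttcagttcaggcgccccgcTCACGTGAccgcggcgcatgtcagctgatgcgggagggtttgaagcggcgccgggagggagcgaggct
Gla holds the core at 2 places, and between them a TCATGTGA, the core of the M-box that MITF, a relative of TFEB, is known to bind. The shorter E-box CACGTG, which every core also contains, was found in 10 of the 39 genes (25.6%, against 8.09% of all genes with a window). The full CLEAR consensus, longer than its core, was in none of the 39 and in 0.37% of all genes. TCATGTGA was in 12.8% against 1.15%, and GAGGAAGT, a core bound by the macrophage factor PU.1, was in 5.13% against 3.69%, both strands being searched throughout. A match describes letters in a window and no binding was measured.

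The comparison of Bcl2l1-deleted with control tumours asked how these genes differ when the tumour lacks Bcl2l1. Of 15 tested hydrolases 5 rose, with a median change above that of all genes, while 1 of 18 pump genes rose and the pump's median lay near that of all genes. Of the 45 tested genes 7 rose, none fell and 38 did not pass, which is 15.6% higher where 4.93% of all tested genes were called higher and 1.6% lower. The 5 hydrolases were 33.3% of those tested, the pump gene 5.56%, near the share over all genes, and the 1 other lysosomal gene 8.33% of 12. The pump gene, Atp6v0d2, passed the dim filter only through its level in Bcl2l1-deleted tumours, and none of the other 17 pump genes passed the test (2 of them had an unadjusted p under 0.05, limma). The median relative change was 0.49 for the hydrolases, 0.05 for the pump and 0.05 for the other genes, on a scale where the median of all tested genes is 0. Without control replicate 2 these medians were 0.47, 0.01 and 0.11, and 8 hydrolases, 2 pump genes and 1 other gene were higher and 1 hydrolase lower, where 8.95% of all genes were called higher and 4.57% lower. The groups did not overlap for 15 of the 45 genes, all of them higher in Bcl2l1-deleted tumours, where 19.0% of all tested genes did not overlap in that direction and 4.46% in the other. Without control replicate 2 the same 15 and, in the other direction, Ids did not overlap, where 20.2% of all genes were higher in this way and 8.48% lower.

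**Figure D1:**
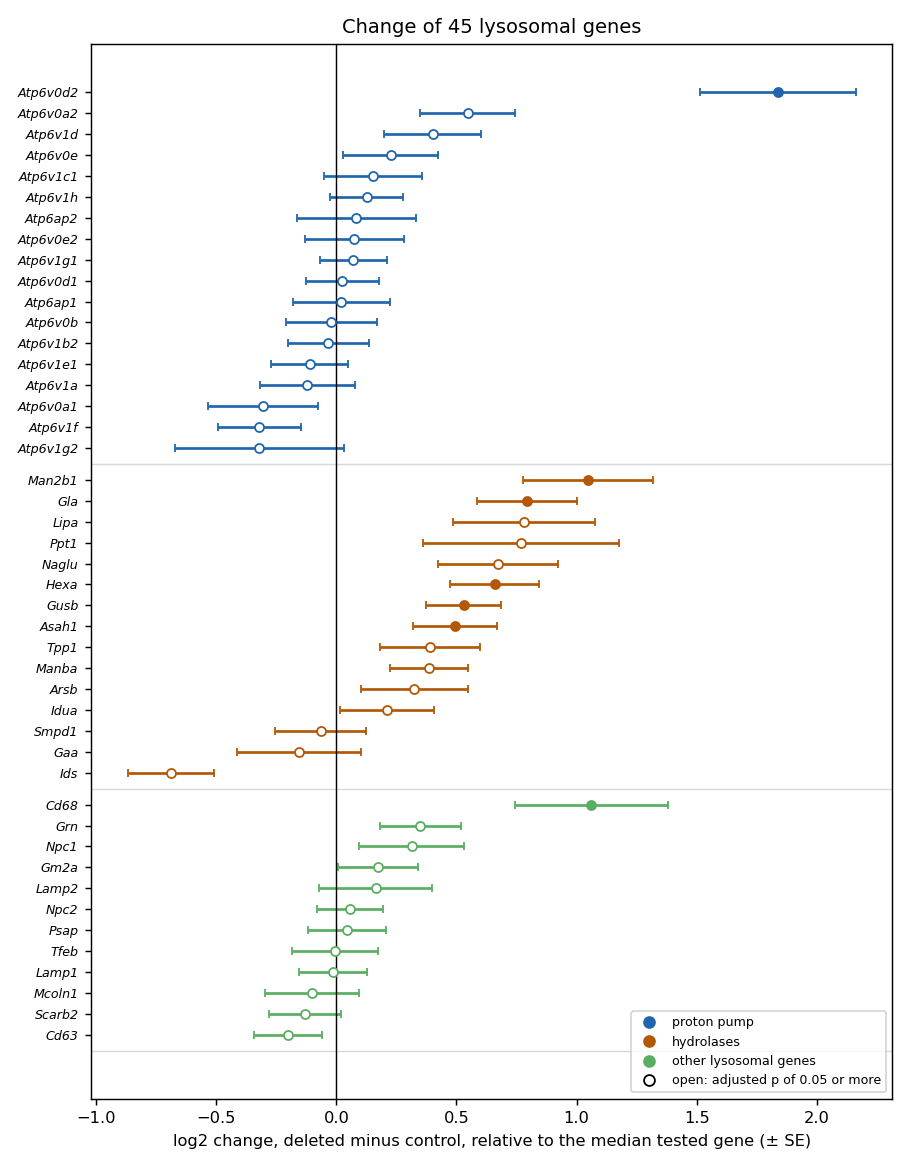
Fitted log2 change of each of the 45 tested lysosomal genes, Bcl2l1-deleted minus control, relative to the median tested gene, with its SE (limma, 4 arrays per group). Filled points passed an adjusted p of 0.05: 5 hydrolases, the pump gene Atp6v0d2 and Cd68, while most pump genes scatter around 0.

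The number of genes called moved with each array. With 1 Bcl2l1-deleted array dropped, 1 lysosomal gene was called higher without replicate 1, 0 without replicate 2 and 1 without replicate 3 or 4. The gene was Atp6v0d2 each time, so no hydrolase stayed called when any Bcl2l1-deleted array was left out. With 1 control array dropped, 12 were called higher without replicate 1 and 11 without replicate 2. Without replicate 3 they were 2, Atp6v0d2 and Hexa, and without replicate 4 it was 1, Atp6v0d2. The background moved too. Without Bcl2l1-deleted replicate 1, 0.103% of all genes were called higher and 0.0258% lower, and these shares were 0.238% and 0.0644% without replicate 2, 1.65% and 1.27% without replicate 3 and 1.19% and 0.245% without replicate 4. Without control replicate 1 they were 10.4% and 2.49%, without replicate 3 2.3% and 0.67%, and without replicate 4 0.76% and 0.251%. All 7 genes kept a positive change in each of the 22 alternatives, except that Atp6v0d2 was tested in 21 of them.

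The scale and the covariates mattered in the same way. After each array was centred on its tested genes, 4 lysosomal genes (Atp6v0d2, Gla, Hexa and Man2b1) were higher and Ids was lower, where 2.51% of all genes were called higher and 4.5% lower. With a covariate for the median of the olfactory and vomeronasal receptor genes, 1 gene, Atp6v0d2, was higher and Ids was lower, where 1.76% of all genes were called higher and 2.6% lower. That median was itself apart between the genotypes, at 2.79 to 2.92 on Bcl2l1-deleted arrays and 2.94 to 3.60 on controls. Control replicate 2 held the 3.60. The covariate therefore also takes up part of any genotype difference, and the lost calls cannot be read as a correction. With the Xist level, which stands for the sex of the animal, in the model, Atp6v0d2 was the 1 gene called, where 0.953% of all genes were called higher and 0.335% lower. Xist was high on Bcl2l1-deleted replicates 1 and 2 (10.08 and 9.63) and low on replicates 3 and 4 (4.91 and 4.70). Among controls it was high on replicates 1, 2 and 4 (9.89 to 10.54) and low on replicate 3 (4.53). The sexes were thus not evenly divided between the groups.

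The glycan hydrolases, which remove sugars and sulphates from glycoproteins, glycolipids and glycosaminoglycans, held 4 of the 5 hydrolases that rose. Man2b1, the lysosomal alpha-mannosidase, stood at 9.64, 9.25, 9.60 and 9.28 in Bcl2l1-deleted tumours, against 8.93, 7.44, 8.37 and 8.14 in controls. Every Bcl2l1-deleted array was above every control array, and the lowest control was replicate 2. The fitted log2 change was 1.22 ± 0.27 (SE), or 2.33-fold, with an adjusted p of 0.0324 (0.0169 without control replicate 2, where the change was 0.96).

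Gla, the alpha-galactosidase that clears globotriaosylceramide, stood at 7.26, 7.45, 7.26 and 7.13 in Bcl2l1-deleted tumours, against 6.72, 5.72, 6.32 and 6.49 in controls. All 4 deleted arrays lay above the highest control, and control replicate 2 was again the lowest. Its change was 0.97 ± 0.21 (SE), or 1.95-fold, with an adjusted p of 0.0290. Gla is X-linked, and with Xist in the model its change was 1.00 with an adjusted p of 0.0620.

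Hexa, the alpha subunit of the hexosaminidase that degrades GM2 ganglioside, stood at 9.63, 9.54, 9.53 and 9.29 in Bcl2l1-deleted tumours and at 8.84, 8.25, 9.01 and 8.57 in controls. Its change was 0.83 ± 0.18 (SE), 1.78-fold, with an adjusted p of 0.0324 and no overlap of the groups. Gusb, the beta-glucuronidase of glycosaminoglycan breakdown, stood at 8.76, 8.68, 8.59 and 8.67 in Bcl2l1-deleted tumours and at 8.32, 7.81, 7.93 and 7.83 in controls. Control replicate 1 was the highest control and still lay below all deleted arrays. The change of Gusb was 0.70 ± 0.16 (SE), 1.63-fold, with an adjusted p of 0.0319.

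Of the other glycan hydrolases, Naglu, which trims heparan sulphate, stood at 7.31, 7.16, 7.13 and 7.0 in Bcl2l1-deleted tumours and at 6.71, 5.52, 6.72 and 6.26 in controls, without overlap but with an adjusted p of 0.0632. Manba, the beta-mannosidase, stood at 6.09, 6.41, 6.33 and 6.26 in Bcl2l1-deleted tumours and at 6.02, 5.69, 5.43 and 5.72 in controls, also without overlap (adjusted p = 0.0626). Both passed without control replicate 2 (adjusted p = 0.0306 for Naglu and 0.0450 for Manba). Arsb, a sulphatase of dermatan sulphate, Idua, the iduronidase, and Gaa, the acid glucosidase of glycogen, had relative changes of 0.32, 0.21 and -0.16 and did not pass (adjusted p = 0.161, 0.207 and 0.969).

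Ids, the X-linked iduronate sulphatase that acts on the same glycosaminoglycans as Idua, had the most negative change among the 45 genes. It stood at 8.43, 8.70, 8.67 and 8.70 in Bcl2l1-deleted tumours, against 9.20, 8.68, 9.25 and 9.44 in controls, where replicate 2 alone reached down into the deleted range. The change was -0.52 ± 0.18 (SE) and did not pass (adjusted p = 0.0952). Without control replicate 2 it was -0.67 with an adjusted p of 0.0130 and the groups did not overlap, and with Xist in the model it was -0.55 (adjusted p = 0.147). It was also called lower under quantile normalization, with array weights, after centring on tested genes and with the receptor covariate, and not in the other 17 alternatives.

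**Figure D2:**
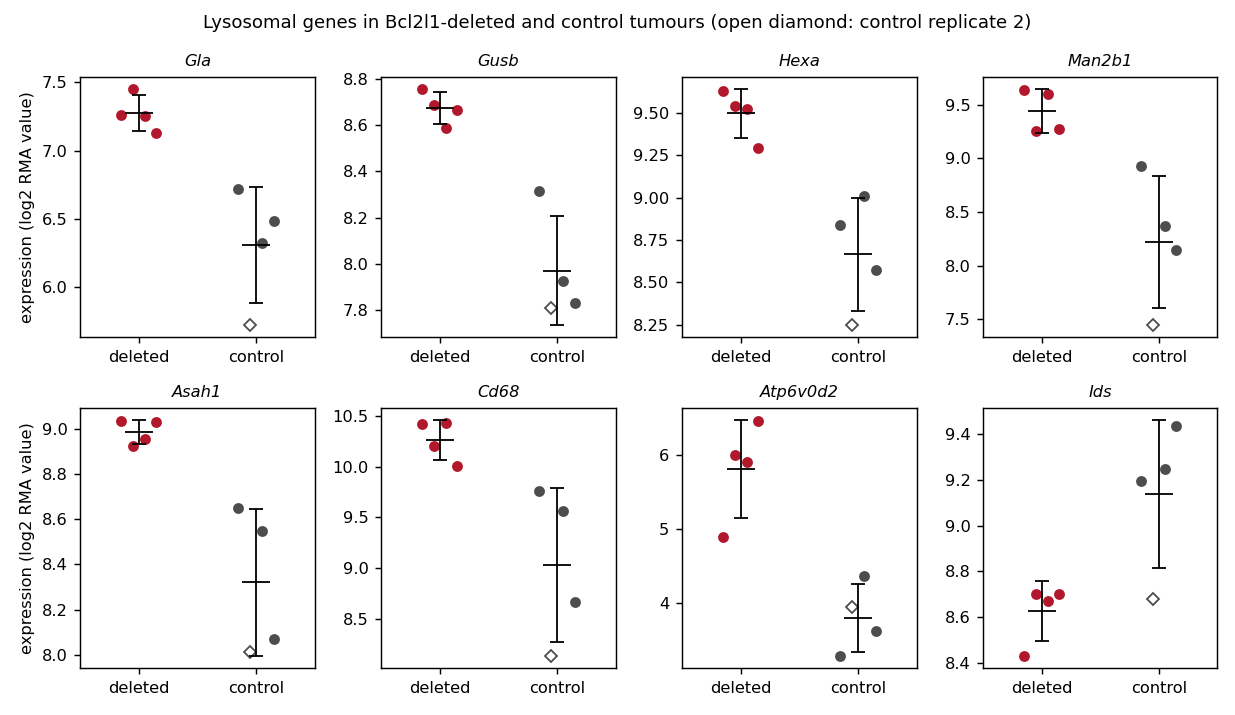
Log2 RMA values of the 7 genes that rose and of Ids, with Bcl2l1-deleted tumours left and controls right in each panel; points are arrays, bars the mean ± SD (n = 4) and the open diamond is control replicate 2. The groups are apart for the 7 genes, and for Ids only control replicate 2 lies among the Bcl2l1-deleted arrays.

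Among the enzymes of lipids and peptides, 1 of 5 rose. Asah1, the acid ceramidase, stood at 9.03, 8.92, 8.95 and 9.03 in Bcl2l1-deleted tumours, against 8.65, 8.01, 8.55 and 8.07 in controls. The deleted arrays were close together and above all controls, while the controls formed a higher and a lower pair. The change was 0.67 ± 0.18 (SE), 1.59-fold, with an adjusted p of 0.0486, just inside the threshold, and it was called in 8 of 22 alternatives. Lipa, the acid lipase that frees cholesterol from its esters, stood at 8.37, 8.29, 8.19 and 8.23 in Bcl2l1-deleted tumours and at 7.75, 6.35, 7.95 and 7.21 in controls, without overlap but with a wide control range (adjusted p = 0.0720, and 0.0400 without control replicate 2).

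Ppt1, the palmitoyl-protein thioesterase, stood at 9.59, 9.59, 9.97 and 9.45 in Bcl2l1-deleted tumours and at 9.57, 7.28, 9.29 and 8.71 in controls. The groups overlapped, control replicate 2 was the lowest array, and its change of 0.94 became 0.46 without that array (adjusted p = 0.150, and 0.152 without it). Tpp1, a tripeptidyl peptidase, and Smpd1, the acid sphingomyelinase, had relative changes of 0.39 and -0.07 (adjusted p = 0.105 and 0.713).

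In the V0 sector of the pump 1 of 7 tested subunits rose. Atp6v0d2, the form of the d stalk subunit known from macrophages, osteoclasts and kidney, stood at 4.88, 5.99, 5.91 and 6.46 in Bcl2l1-deleted tumours, against 3.28, 3.94, 4.35 and 3.62 in controls. The deleted range was wide, with replicate 1 more than 1 unit below the other 3, yet it did not meet the control range. All 4 control values lay at or below the dim filter of 4.38, so the gene was tested because of its level in the Bcl2l1-deleted tumours, and its control level was near background (the receptor genes Olfr and Vmn, mostly silent in brain, had medians of 2.94 to 3.60 on the control arrays). The fitted change was 2.01 ± 0.32 (SE), with an adjusted p of 0.0140 (0.0123 without control replicate 2), but with controls near background its size is not exact, and a gene that entered in this way had to differ. It was not called with a plain linear model or without Bcl2l1-deleted replicate 2 (highest adjusted p = 0.0900), and the stricter filter at the 50th percentile left it out.

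Its broadly expressed counterpart Atp6v0d1, whose promoter carries the CLEAR core at the start site, stood at 9.94, 9.89, 9.90 and 9.97 in Bcl2l1-deleted tumours and at 9.95, 9.43, 9.86 and 9.68 in controls. Control replicates 1 and 3 lay within or next to the deleted range, and the change was 0.20 ± 0.15 (SE, adjusted p = 0.386). No difference between the d2 and d1 forms is given, since the d2 level in controls was near background.

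The a subunits form the proton path with the membrane ring. Atp6v0a2, a form known from endosomes and the Golgi, stood at 9.26, 9.26, 9.16 and 9.07 in Bcl2l1-deleted tumours and at 8.83, 7.95, 8.71 and 8.38 in controls, without overlap, and just missed the threshold (change 0.72 ± 0.20 SE, adjusted p = 0.0536, and 0.0297 without control replicate 2). Atp6v0a1, the form abundant in neurons and synaptic vesicles, stood at 8.81, 8.80, 9.20 and 8.71 in Bcl2l1-deleted tumours and at 9.25, 8.32, 9.18 and 9.30 in controls. Here 3 controls were at the level of Bcl2l1-deleted replicate 3 and replicate 2 was the lowest of all, and the change was -0.13 ± 0.23 (SE, adjusted p = 0.708). Without control replicate 2 the change of Atp6v0a1 was -0.36 (adjusted p = 0.101). The remaining V0 genes, the ring subunit gene Atp6v0b and the small membrane subunits Atp6v0e and Atp6v0e2, had relative changes of -0.02, 0.23 and 0.07 (adjusted p = 0.595, 0.194 and 0.415).

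None of the 9 V1 subunits passed, and 1 had an unadjusted p under 0.05 (limma). That gene, Atp6v1d, the central shaft of the motor, stood at 9.77, 9.79, 9.82 and 9.51 in Bcl2l1-deleted tumours and at 9.53, 8.64, 9.42 and 9.02 in controls (change 0.57 ± 0.20 SE, adjusted p = 0.0983). Deleted replicate 4 lay just under control replicate 1, so the groups met at 1 point. Atp6v1h, a regulatory subunit, stood at 8.23, 8.23, 8.26 and 8.43 in Bcl2l1-deleted tumours and at 8.19, 7.69, 8.08 and 8.0 in controls, without overlap and with an adjusted p of 0.208.

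The stator subunit genes Atp6v1g1, expressed widely, and Atp6v1g2, known from neurons, differed in spread. Atp6v1g1 stood at 8.33, 8.40, 8.23 and 8.44 in Bcl2l1-deleted tumours and at 8.29, 8.04, 8.06 and 8.04 in controls (adjusted p = 0.248). Atp6v1g2 stood at 7.18, 7.14, 8.21 and 6.49 in Bcl2l1-deleted tumours and at 7.97, 6.71, 7.53 and 7.41 in controls (adjusted p = 0.788). Its highest and lowest values were both Bcl2l1-deleted arrays, so the groups overlapped fully. The catalytic ring genes Atp6v1a and Atp6v1b2, with relative changes of -0.12 and -0.03, and Atp6v1c1, Atp6v1e1 and Atp6v1f, at 0.15, -0.11 and -0.32, did not pass (adjusted p from 0.290 to 0.874 over the 5). Atp6v1f was dim, with means of 4.67 in Bcl2l1-deleted tumours and 4.82 in controls, close to the dim filter of 4.38. A second probe set of Atp6v1b2 differed in the other direction, by -0.58 against 0.14 for the brighter one used here.

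The accessory genes Atp6ap1, an assembly factor of the pump, and Atp6ap2, the prorenin receptor, are both X-linked. Atp6ap1 stood at 9.90, 9.99, 10.33 and 10.04 in Bcl2l1-deleted tumours and at 10.34, 9.39, 9.87 and 9.88 in controls. Atp6ap2 stood at 9.19, 9.06, 9.17 and 9.11 in Bcl2l1-deleted tumours and at 9.47, 8.11, 9.09 and 8.84 in controls. Control replicate 1 was highest and control replicate 2 lowest for both genes, so the deleted arrays lay inside the control range (adjusted p = 0.521 and 0.488). With Xist in the model their changes were 0.17 and 0.23, where the plain fit gave 0.19 and 0.25.

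Among the luminal proteins that are not hydrolases, none of 4 passed, and 1 had an unadjusted p under 0.05 (limma). Grn, the gene of progranulin, stood at 10.56, 10.52, 10.82 and 10.43 in Bcl2l1-deleted tumours and at 10.39, 9.81, 10.09 and 9.96 in controls, a small gap without overlap (change 0.52 ± 0.17 SE, adjusted p = 0.0798). Gm2a, the activator that presents GM2 ganglioside to hexosaminidase, stood at 10.26, 10.26, 10.49 and 10.04 in Bcl2l1-deleted tumours and at 10.18, 9.76, 10.04 and 9.69 in controls, with a relative change of 0.17 (adjusted p = 0.186) beside the 0.66 of Hexa. Psap, the precursor of the saposins, and Npc2, the luminal cholesterol carrier, had relative changes of 0.04 and 0.06 (adjusted p = 0.373 and 0.271).

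Among 7 membrane proteins 1 rose. Cd68, a heavily glycosylated lysosomal protein of macrophages and microglia, stood at 10.42, 10.20, 10.43 and 10.01 in Bcl2l1-deleted tumours, against 9.76, 8.13, 9.56 and 8.67 in controls. The groups were apart, and controls 2 and 4 lay about 1 unit or more below controls 1 and 3. Its change was 1.23 ± 0.32 (SE), 2.35-fold, with an adjusted p of 0.0466, which was 0.0365 without control replicate 2 and 0.0502 after centring on tested genes. The abundant coat protein Lamp1 stood at 10.98, 10.85, 10.96 and 10.83 in Bcl2l1-deleted tumours and at 10.85, 10.87, 10.74 and 10.53 in controls, with a relative change of -0.02 (adjusted p = 0.455).

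The X-linked coat protein gene Lamp2, needed for fusion with autophagosomes, stood at 8.62, 8.27, 8.60 and 8.26 in Bcl2l1-deleted tumours and at 8.54, 7.42, 8.38 and 8.06 in controls (relative change 0.16, adjusted p = 0.337). Npc1, the membrane partner of Npc2 in cholesterol export, stood at 8.56, 8.50, 8.61 and 8.76 in Bcl2l1-deleted tumours and at 8.50, 7.45, 8.26 and 8.29 in controls (relative change 0.31, adjusted p = 0.160). Its deleted range began just above the highest control. The tetraspanin gene Cd63, Scarb2, the receptor that carries glucocerebrosidase to the lysosome, and Mcoln1 had relative changes of -0.20, -0.13 and -0.10 (adjusted p = 0.906, 0.865 and 0.824).

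Tfeb was dim and did not pass. It stood at 4.67, 4.49, 4.82 and 5.03 in Bcl2l1-deleted tumours and at 4.38, 4.94, 4.62 and 4.41 in controls, with overlapping ranges (relative change -0.01, adjusted p = 0.536). Read against the sequences above, 1 of the 5 genes with the CLEAR core, Gla, rose, while the relative changes of Atp6v0d1, Atp6v0e, Atp6v1a and Mcoln1 were 0.03, 0.23, -0.12 and -0.10. Of the 7 genes that rose 5 had a window, and 1 of these, Gla, held the core. GAGGAAGT was in the windows of 2 of them, Gla and Gusb.

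The contrast of hydrolases and pump was also seen array by array. For each array the median deviation of a group's genes from their own means over the 8 arrays was taken, as a description with no test. The hydrolases deviated by 0.38, 0.36, 0.40 and 0.26 in Bcl2l1-deleted tumours, against 0.03, -0.81, -0.01 and -0.46 in controls, so the groups were apart. The pump deviated by 0.09, 0.06, 0.21 and 0.07 in Bcl2l1-deleted tumours, against 0.30, -0.56, -0.04 and -0.14 in controls, with control replicate 1 the highest of all. The difference of hydrolases minus pump was 0.29, 0.30, 0.19 and 0.19 on the Bcl2l1-deleted arrays and -0.28, -0.25, 0.03 and -0.32 on the controls. The other 12 lysosomal genes deviated by 0.16, 0.05, 0.20 and 0.03 in Bcl2l1-deleted tumours and by 0.10, -0.31, -0.07 and -0.20 in controls, and overlapped. The median of all tested genes was apart as well, by less, at 0.07 to 0.11 in Bcl2l1-deleted tumours and -0.37 to 0.02 in controls.

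**Figure D3:**
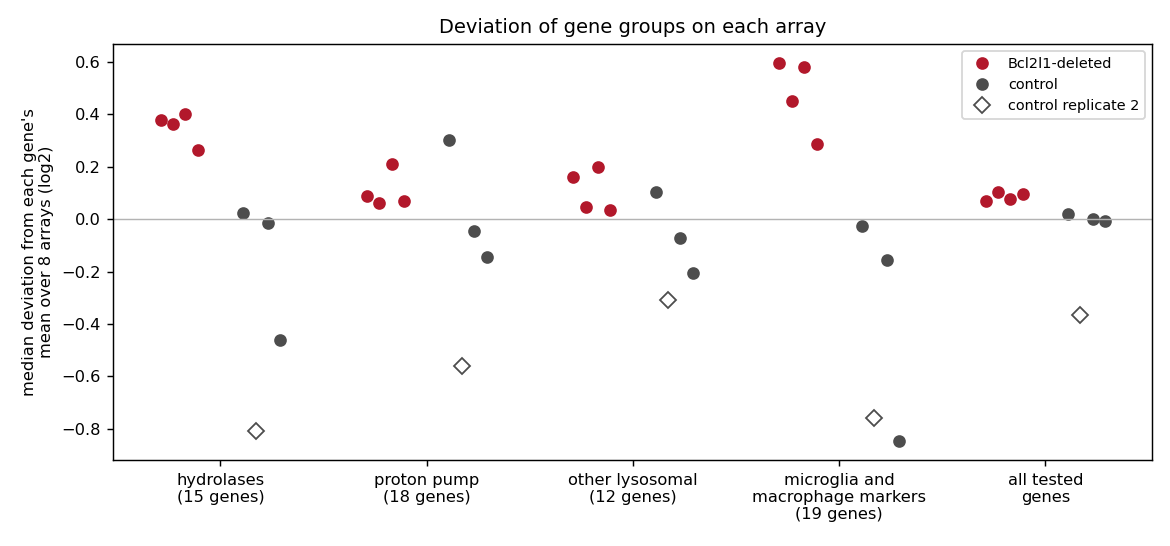
Median deviation of each gene group from its genes' own means over the 8 arrays (log2), per array, with Bcl2l1-deleted arrays left of controls in each group; the open diamond is control replicate 2. Hydrolases, microglia and macrophage markers and, by less, all tested genes separate the genotypes, and the pump does not, with control replicate 1 at 0.30 above every Bcl2l1-deleted array.

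Most markers of microglia and macrophages moved with the hydrolases, 17 of 19 having a change above that of the median gene. Of 20 listed markers 19 were measured, none was under the dim filter, 9 rose and none fell. Their summed log2 level over the 19 genes was 139.8 to 145.0 in Bcl2l1-deleted tumours and 117.8 to 133.5 in controls (119.5 to 133.5 without control replicate 2). Csf1r, the receptor that microglia depend on, had a relative change of 1.15 (adjusted p = 0.0384) and Aif1 of 1.12 (adjusted p = 0.0140), while Cx3cr1 and Tmem119 stood at 0.23 and 0.28 and did not pass (adjusted p = 0.137 and 0.144). Siglech and Cd163 lay in the other direction, with relative changes of -0.48 and -0.22, and did not pass either (adjusted p = 0.270 and 0.890). On the arrays these markers deviated by 0.60, 0.45, 0.58 and 0.29 in Bcl2l1-deleted tumours and by -0.02, -0.76, -0.16 and -0.85 in controls. Controls 2 and 4 were lowest for the hydrolases as well. They were also lowest for the pump (-0.56 and -0.14), the other lysosomal genes (-0.31 and -0.20) and all tested genes (-0.37 and -0.01). The order of these 2 arrays is thus not particular to hydrolases and microglia markers. In bulk tumour, more cells of a type and more RNA per cell cannot be told apart, and the part of these cells in the lysosomal result was not tested.

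Endothelial, mural and fibroblast markers were higher in Bcl2l1-deleted tumours too. Of 8 endothelial and mural markers 6 rose (75.0%, against 4.93% of all genes), with a median relative change of 0.80 and a summed log2 level of 61.5 to 62.1 in Bcl2l1-deleted tumours and 51.8 to 56.4 in controls. Of 6 fibroblast markers 4 rose (66.7%), with a median of 1.00 and a summed log2 level of 43.6 to 47.3 in Bcl2l1-deleted tumours and 36.3 to 39.9 in controls. Among these 4, Ogn had a control mean of 4.36, under the dim filter. It was tested only through its level in Bcl2l1-deleted tumours and so had to differ. The summed levels of both lists were apart between the genotypes, with and without control replicate 2, as were those of the microglia and macrophage list, of which 47.4% rose with a median of 0.77. Of 7 astrocyte markers 2 rose (28.6%), with overlapping summed levels of 65.5 to 69.7 in Bcl2l1-deleted tumours and 58.2 to 67.1 in controls.

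Of 9 measured markers of infiltrating leukocytes 5 were under the dim filter, among them Ccr2, Cd3e and S100a8, and none of the 4 tested passed or had an unadjusted p under 0.05 (limma). Their summed log2 level of 35.0 to 38.1 in Bcl2l1-deleted tumours overlapped the 35.7 to 39.7 of controls. Of 7 osteoclast markers, listed because Atp6v0d2 is known from those cells, 1, Ctsk, rose (relative change 0.59, adjusted p = 0.0238), and the fusion genes Dcstamp and Ocstamp did not, Dcstamp being under the dim filter. Granule neuron markers fell for 7 of 12, with a summed log2 level of 85.3 to 97.8 in Bcl2l1-deleted tumours and 99.8 to 111.2 in controls, and general markers of mature neurons fell for 1 of 10 (6 of 10 without control replicate 2). Over all tested genes, 4.93% were called higher and 1.6% lower (8.95% and 4.57% without control replicate 2). Of the choroid plexus and ependyma markers 2 of 6 fell, Ttr and Folr1. Ttr had a mean of 6.07 in Bcl2l1-deleted tumours and 11.20 in controls, both above the dim filter (change -5.14 ± 0.25 SE, limma adjusted p = 7.3e-06). Folr1 had a mean of 4.32 in Bcl2l1-deleted tumours, under the dim filter, and was tested only through its control level. Of 9 oligodendrocyte markers 2 fell (4 without control replicate 2). Ermn, called only without that array, had a Bcl2l1-deleted mean of 4.30, also under the filter. Of 6 markers of their precursors 2 rose, of 5 interneuron markers 1 fell and of 4 Purkinje cell markers none passed or had an unadjusted p under 0.05 (limma). The part of all these cell types in the values of the lysosomal genes was not tested.

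Among further genes listed by function, a list of other hydrolases had a higher median change than a mixed list of V-ATPase genes. Of 29 tested genes in the hydrolase list 7 rose and none fell (24.1%, against 4.93% of all genes), with a median relative change of 0.37. The list also holds some enzymes that are not lysosomal hydrolases, among them Sgpl1, Sumf1 and Hgsnat, which did not pass. Galns, a sulphatase of keratan sulphate, stood at 7.03, 7.15, 6.94 and 7.18 in Bcl2l1-deleted tumours, against 6.0, 5.29, 6.04 and 5.94 in controls (change 1.26 ± 0.19 SE, adjusted p = 0.0120). Naaa, which hydrolyses N-acylethanolamines, stood at 8.59, 7.71, 8.91 and 8.49 in Bcl2l1-deleted tumours, against 7.28, 6.27, 6.56 and 7.35 in controls (change 1.56 ± 0.30 SE, adjusted p = 0.0216). Both pairs of groups were apart.

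Galc, the galactosylceramidase of myelin lipid, had a relative change of 0.76 (adjusted p = 0.0216) and Sgsh, the sulphamidase of heparan sulphate, of 0.83 (adjusted p = 0.0238). The list of other V-ATPase genes mixes subunits with regulators and partners of the pump, such as Ncoa7 and Rogdi. Its median therefore does not describe the pump alone. Of its 12 tested genes 1 rose (8.33%, against 4.93% of all genes), and the list's median relative change was -0.13. That gene, Tcirg1, the a3 subunit known from macrophages and osteoclasts, stood at 7.48, 7.10, 7.63 and 7.31 in Bcl2l1-deleted tumours, against 6.86, 6.27, 6.53 and 6.35 in controls (change 0.88 ± 0.18 SE, adjusted p = 0.0252). All deleted arrays were above the highest control. Rnasek, Ncoa7 and Rogdi, with relative changes of 0.41, -0.40 and 0.18, did not pass (adjusted p = 0.195, 0.276 and 0.304).

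Of 34 other lysosomal membrane genes 2 rose, and this 5.88% is near the 4.93% of all genes. Slc15a3, a peptide and histidine transporter of macrophage lysosomes, had a relative change of 1.05 (adjusted p = 0.0140) and Laptm5, a lysosomal protein of blood cell lineages, of 0.97 (adjusted p = 0.0179). Laptm4b and Slc11a1, at 0.60 and 0.54, did not pass (adjusted p = 0.061 and 0.0699). None of 25 genes of the mannose 6-phosphate route and of sorting, by which hydrolases reach the lysosome, passed, and 6 had an unadjusted p under 0.05 (limma). Vps29, Vps18, the receptor gene M6pr and Vps26a stood at 0.47, 0.29, 0.58 and 0.42 (adjusted p = 0.0688, 0.0964, 0.0971 and 0.116).

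Among 20 genes of the TFEB relatives and of lysosomal mTORC1 control 1 rose, and this 5.0% is near the 4.93% of all genes. This was Tfec, the relative of TFEB known from macrophages, which stood at 5.76, 5.42, 5.60 and 6.02 in Bcl2l1-deleted tumours, against 4.41, 4.77, 4.65 and 4.35 in controls (change 1.15 ± 0.17 SE, adjusted p = 0.0121). The groups were apart, and control replicate 2 was the highest control. Rragc, Fnip2 and Lamtor2, which belong to the nutrient-sensing arm on the lysosome, had relative changes of 0.29, 0.30 and 0.22 and did not pass (adjusted p = 0.0815, 0.151 and 0.159). The list's median relative change was 0.07.

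**Figure D4:**
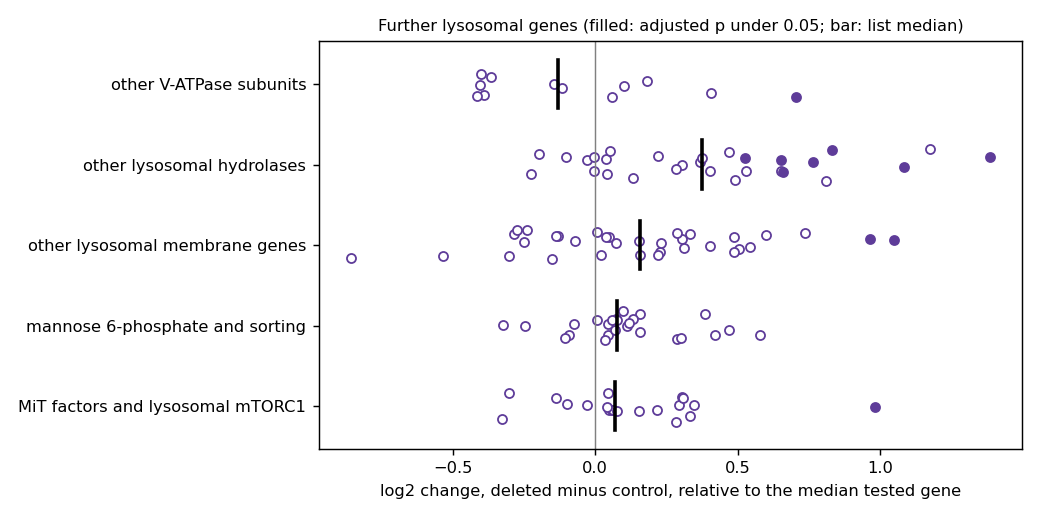
Relative log2 change, Bcl2l1-deleted minus control, of further lysosomal genes in 5 lists; filled points passed an adjusted p of 0.05 and black bars are list medians. The hydrolase list is shifted to the right with a median of 0.37, while the V-ATPase list has its median at -0.13 with Tcirg1 alone filled.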

How the data were processed

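Tumour RNA from 8 mice, 4 per genotype, was hybridised to 1 Affymetrix whole-transcript array each, and the deposited values are log2 RMA expression values from the Partek gene expression workflow, per the labels. RMA corrects background, normalizes between arrays and summarises probes, so changes of dim genes are understated. Version, options and genome build: not given in the sources used here. Groups came from the titles.

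Of 41345 probe sets, 23521 had 1 gene symbol in the platform annotation, 1814 several and 16010 none. Of the 23521, 23328 matched a RefSeq gene by Entrez identifier, which changed 0 symbols. The brightest probe set per gene was kept, giving 22180 genes, and the 6654 whose mean did not exceed the 30th percentile (4.38) were left out. limma 3.58.1 in R 4.3.3 (lmFit, eBayes, two-sided, Benjamini-Hochberg over 15526 genes, called under 0.05) compared the groups; 4730 genes had an unadjusted p under 0.05. Exact permutation over 70 regroupings gives a p of 0.0286, the smallest these group sizes allow, for any gene whose groups do not overlap. The fit was tested on simulated data. Figures and counts used Python 3.11.15.

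All 45 tested lysosomal genes were named, and so were the 4 smallest p of each further list. A planned rule covered 25 of the 45: those past the threshold, up to 3 of each functional class by p or size, 4 pump paralogue pairs and X-linked genes. A few further genes were named to describe a list. The genes, lists and alternatives were chosen with earlier results of these data known. The labels name no pairing, and same-numbered arrays did not deviate together (correlations from -0.135 to 0.053). Replicate numbers were therefore not used as pairs in the main fit, although this check cannot exclude a shared litter or run.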

Additional observations from a re-analysis of the deposited data

Results flagged for a closer look

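In 6 of 90 sets of 4 arrays (45 lysosomal genes in each genotype), 1 array lay far from the other 3 by Dixon's criterion, where chance gives about 1 in 20. Atp6v0a1 was low on control replicate 2 (8.32, against 9.18 to 9.30 on the other controls). Atp6v0b and Atp6v1g1 were high on control replicate 1 (9.95, against 9.30 to 9.38, and 8.29, against 8.04 to 8.06). Atp6v1h was high in Bcl2l1-deleted replicate 4 (8.43, the other 3 being at 8.23 to 8.26), Psap was high on Bcl2l1-deleted replicate 3 (11.83, against 11.53 to 11.58), and Ids was low on Bcl2l1-deleted replicate 1 (8.43, against 8.67 to 8.70). None of the 6 genes passed the test between genotypes with all arrays, where 18 of the 45 had an unadjusted p under 0.05 (limma).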

How the results depend on the processing

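The median fitted change of the hydrolases exceeded that of the pump in all 22 alternatives, by 0.39 to 0.48 on the log2 scale. Settings that change only the estimate of spread, the centring of arrays or the replicate block, or drop the dim filter, cannot alter this difference. It was 0.44 in each of them, so they add no support. Both ends of the range came from leaving out 1 array. The count of genes past the threshold depended on the setting: 1013 genes of 15526 and 7 lysosomal genes higher became 548 without a dim filter, 43 and 0 with a plain linear model, 200 and 1 with the Xist level as a covariate, and 3494 and 13 with array weights. Lysosomal genes higher numbered 4 after centring on tested genes and 1 with the receptor covariate. In these 2 settings, with quantile normalization and with array weights, 1 gene (Ids) was lower. The replicate number as a block gave 508 genes and 3 lysosomal genes higher, although the labels name no pairing and no array correlated best with its own number. Of the called genes 765 were higher and 248 lower, against 1337 and 171 after centring on all probe sets, 390 and 699 after centring on tested genes and 273 and 404 with the receptor covariate. Leaving out 1 array gave 20 to 2100 genes, 0 to 12 lysosomal genes higher and 0 to 1 lower. The range of the medians was 0.09 to 0.33 for the pump, 0.55 to 0.78 for hydrolases and 0.19 to 0.31 for the other genes. Fitted medians followed the scaling. After centring on tested genes the pump had -0.037 and the other genes -0.036, and after centring on all probe sets the other genes had 0.39. Centring shifts the change of every gene alike. The relative medians therefore stayed at 0.49 for hydrolases and 0.05 for the pump and for the other genes. With the receptor covariate, which is not a scaling, the pump had -0.067 and the hydrolases 0.33. The cause of the remaining differences between settings was not tested.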
